A study of Homo sapiens with 12 samples.

Results

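The genes described here encode the collagens, laminins, other glycoproteins and proteoglycans of the extracellular matrix, together with the enzymes that process, crosslink and cleave them and the inhibitors of those enzymes. They were chosen by name, with earlier results of these data known, as 49 of the 60617 gene identifiers counted, and all 49 were found. The RNA came from HCT 116 p53-/- cells, human colon carcinoma cells that lack p53, and uL3ΔHCT 116 p53-/- cells, which also carry the p53 deletion. The second line is 1 sub-line, given in the sample labels as a knockout of RPL3, the gene for the ribosomal protein uL3, so that uL3 status and any other difference between the lines cannot be told apart. The methods describe it as stably silenced for uL3. Each line received vehicle or 5 nM Act D for 24 h, with 3 libraries in each of the 4 groups and 12 in all. Act D (actinomycin D) is a DNA-binding drug that at low doses mainly blocks RNA polymerase I.

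Collagens are trimers of chains wound into a triple helix. The fibrillar types form the fibres of connective tissue, type IV the mesh of basement membranes and type VI beaded filaments beside cells. Laminins are trimers of an α, a β and a γ chain that anchor epithelial cells to basement membranes. Lysyl hydroxylases modify collagen chains in the endoplasmic reticulum, lysyl oxidases crosslink the secreted fibres, matrix metalloproteinases cleave them and TIMPs inhibit those proteases. Epithelial tumour cells usually make basement membrane components, whereas much of the fibrillar matrix of a tumour comes from fibroblasts.

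Counts were RSEM expected counts with totals of 10087925 to 21138886 per library. Levels are given as CPM, each count scaled to a common total over the genes tested and normalized by TMM, or as TPM. The TPM values (per length) are from the deposited RSEM results, correct for transcript length and carry no TMM scaling. They alone are used to compare one gene with another. Where CPM and TPM differ between groups, length and scaling both enter, and their parts were not tested. All p-values are from edgeR's quasi-likelihood test, adjusted by the Benjamini-Hochberg method over 15692 genes, with 0.05 as the threshold. RPL3 was not lower in the libraries labelled uL3Δ: its mean was 1138 CPM in vehicle-treated HCT 116 p53-/- cells, against 1242 CPM in them (log2 fold change 0.13, edgeR adjusted p = 0.155). Because the targeted gene goes against the label, these libraries are called by their label, and every direction between the lines below rests on it. Of 12 markers of colonic epithelium, 8 could be tested and 7 were lower in the libraries labelled uL3Δ, among them CDH1 (66.8 against 0.445 CPM) and KRT19 (608.5 against 36.6 CPM), while KRT18 was higher. CDX1, VIL1, CDH17 and LGALS4 were at or near 0 in both lines. Of 10 mesenchymal markers tested, 8 were higher, among them VIM (22.0 against 2237 CPM), and their summed level was 30.1 to 40.8 CPM in vehicle-treated HCT 116 p53-/- libraries and 2307 to 2361 CPM in those labelled uL3Δ, of which VIM made up nearly the whole. ACTA2 was lower (4.46 against 0.776 CPM), CDH2 did not pass, and TWIST1, THY1, FAP and DCN were at or near 0. The defining leukocyte marker PTPRC was near 0 and CD3E at 0, while LYZ, the one leukocyte marker that could be tested, was higher in the libraries labelled uL3Δ (0.956 against 6.36 CPM, edgeR adjusted p = 1.36e-07). Mitochondrial transcripts took 7.98% to 9.505% of counts with vehicle and 10.5% to 12.15% with Act D in HCT 116 p53-/- libraries, and 4.57% to 6.28% and 7.10% to 9.83% in those labelled uL3Δ. Between libraries of 1 group the counts differed by a chi-square of 7.24 to 107 per gene, so none was deposited more than once, and replicate 1 of the Act D libraries labelled uL3Δ stood apart (107 and 62.5 against the other two, which differed by 13.0). In bulk libraries fewer cells of a type and less RNA per cell cannot be told apart, and the part of these markers and of the mitochondrial share in the results was not tested.

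Most of the 49 matrix genes were expressed at a higher level in the libraries labelled uL3Δ. Per length, the summed level of all 49 genes was 352 ± 13.5 TPM (SD, n = 3) in HCT 116 p53-/- cells with vehicle and 1010 ± 178 TPM in the libraries labelled uL3Δ, and 10 and 22 of the genes reached 10 TPM. TGFBI alone held 1.35 and 275 TPM of these sums. Of the 46 genes that passed the filter on low counts, 34 had a higher and 5 a lower level with vehicle, or 39 in all, and the difference was 1 or more on the log2 scale for 26 and 3 of them (18.3% and 19.4% of all genes). Over all genes tested, 71.3% differed between the lines, 35.1% being higher and 36.2% lower, so a call is common in this comparison and the counts of the matrix genes are read beside these. The groups did not overlap for 40 of the 46, 35 being higher and 5 lower, against 72.5% of all genes, 35.5% and 37%. The median log2 fold change of the 46 was 1.87, that of all genes -0.02. With scaling by library size alone the median of all genes moved to -0.26, 4202 of them were higher and 6974 lower, and 32 matrix genes were higher and 5 lower.

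**Figure D1:**
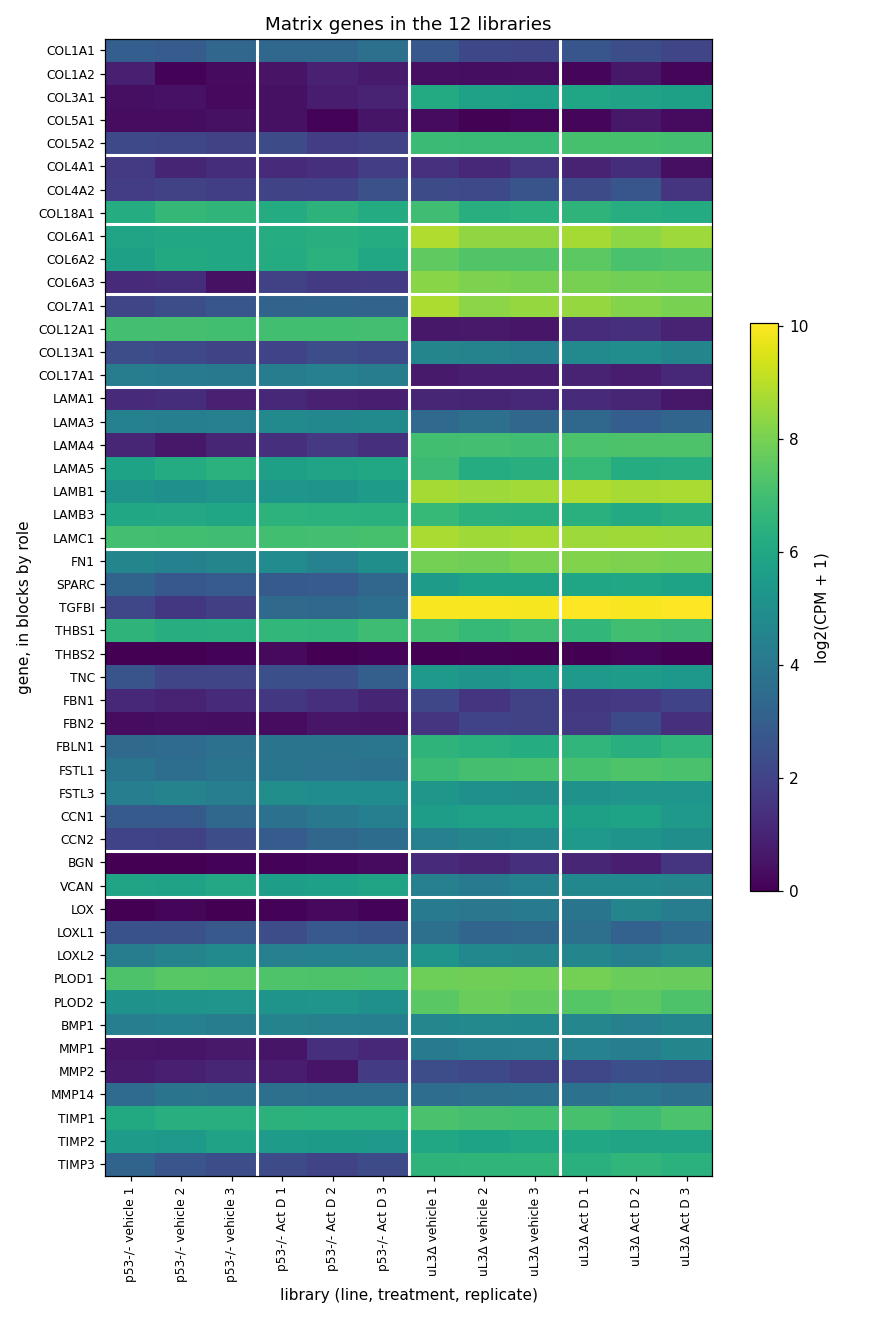
Level of each of the 49 matrix genes (rows, in blocks by role) in each of the 12 libraries (columns, 3 per group), as log2(CPM + 1), with white lines between roles and between groups. The 3 columns of a group look alike, and the 6 libraries labelled uL3Δ differ from the 6 HCT 116 p53-/- libraries in rows such as TGFBI, COL6A3 and LAMA4 (higher) and COL12A1 and COL17A1 (lower).

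Among the fibrillar collagens, COL3A1 and COL5A2 were higher and COL1A1 was lower in the libraries labelled uL3Δ. The named genes are given with their Ensembl identifier and GENCODE v44 position in hg38. COL3A1 (ENSG00000168542, chromosome 2, 188974373 to 189012746), the chain of type III collagen, was at 0.324, 0.413 and 0.181 CPM in the 3 HCT 116 p53-/- libraries with vehicle, and at 0.374, 0.744 and 0.965 CPM with Act D. Among libraries labelled uL3Δ it was at 69.5, 53.7 and 50.4 CPM with vehicle and 61.2, 54.8 and 51.7 CPM with Act D. All 6 libraries of that line were thus far above all 6 of the other. The difference was 7.54 on the log2 scale with vehicle (SE 0.24, edgeR adjusted p = 1.21e-14) and 6.36 with Act D (edgeR adjusted p = 4.42e-14). COL5A2 (ENSG00000204262, chromosome 2, 189031898 to 189225312), a chain of the type V collagen that nucleates fibrils, lies 19152 bases from COL3A1 on chromosome 2, on the opposite strand. It was at 3.69, 3.44 and 2.90 CPM in the HCT 116 p53-/- libraries, against 114, 109 and 108 CPM in those labelled uL3Δ with vehicle, 32.9 times higher (edgeR adjusted p = 6.7e-16). Its partner chain COL5A1 had under 1 CPM in every library and was not tested.

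COL1A1 (ENSG00000108821, chromosome 17, 50184101 to 50201632), the main chain of type I collagen, went the other way. Its levels were 7.0, 6.61 and 8.88 CPM with vehicle and 9.16, 9.33 and 12.1 CPM with Act D in HCT 116 p53-/- cells. The libraries labelled uL3Δ held 5.62, 3.50 and 3.31 CPM and 5.46, 4.34 and 3.25 CPM. The lowest HCT 116 p53-/- library lay above the highest labelled uL3Δ in both treatments, and the log2 fold changes were -0.88 (edgeR adjusted p = 0.0018) and -1.20 (edgeR adjusted p = 0.000145). COL1A2, which encodes the other chain of the type I trimer, had under 1 CPM in every library and was not tested.

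The basement membrane collagens COL4A1, COL4A2 and COL18A1 did not pass the test in either treatment in the fit of all 12 libraries. Other type IV chains, counted below among the other matrix genes, were lower in the libraries labelled uL3Δ in both treatments. With vehicle the log2 fold changes were -7.06 for COL4A5, -4.22 for COL4A4, -4.14 for COL4A6 and -3.5 for COL4A3 (edgeR adjusted p = 1.51e-13, 1.1e-06, 6.82e-08 and 9.42e-05). Their vehicle means were 1.06 to 15.4 CPM in HCT 116 p53-/- cells and 0.0885 to 0.247 CPM in those labelled uL3Δ. COL4A1 and COL4A2 encode the common chains of type IV collagen and face away from each other on chromosome 13, where their GENCODE models overlap by 1345 bases and their RefSeq starts are 127 bases apart. COL4A1 was at 0.348 to 2.57 CPM over the 12 libraries and COL4A2 at 1.855 to 5.48 CPM. The library kit named in the methods does not mark strand, so reads in the overlap cannot be assigned to one of them with certainty. The difference between the lines with vehicle was 0.01 for COL4A1 (95% interval -0.79 to 0.81) and 0.65 for COL4A2 (0.08 to 1.23, edgeR adjusted p = 0.0543), and COL4A2 passed under 3 alternatives, with DESeq2 (adjusted p = 0.0488), without the filter on low counts (edgeR adjusted p = 0.0322) and in a fit of only the groups compared (0.0191). With Act D the difference for COL4A1 was -0.96 (edgeR adjusted p = 0.07), and it passed with scaling by library size alone (0.027), without Act D replicate 1 of HCT 116 p53-/- cells (0.0465) and without Act D replicate 2 labelled uL3Δ (0.0225). COL18A1, whose C-terminal fragment is endostatin, was at 71.3 to 124 CPM (vehicle difference 0.09, -0.21 to 0.39). The 126 bases between the RefSeq starts of the type IV pair (chr13:110307158-110307283, GRCh38.p14, strand of COL4A2) are shown because both genes share them, with a CCAAT box and an Sp1 motif (GGGCGG) in capitals.
COL4A1-COL4A2: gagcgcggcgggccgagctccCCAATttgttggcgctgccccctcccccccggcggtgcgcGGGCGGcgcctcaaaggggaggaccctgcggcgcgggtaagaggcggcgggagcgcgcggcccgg

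All 3 chains of type VI collagen were higher in the libraries labelled uL3Δ, and by different amounts. COL6A1 was at 56.9, 65.0 and 62.9 CPM with vehicle in HCT 116 p53-/- cells and 470.4, 334 and 334 CPM in the libraries labelled uL3Δ, and COL6A2 at 52.0, 67.8 and 62.6 CPM and 192, 160.0 and 162 CPM. COL6A3 (ENSG00000163359, chromosome 2, 237324003 to 237414328) was at 1.30, 1.51 and 0.362 CPM and 307, 266 and 257 CPM. None of the 3 chains overlapped between the lines, and replicate 1 of the libraries labelled uL3Δ was the highest for each. With Act D COL6A3 was at 254, 242 and 229.7 CPM in those libraries, again without overlap. The log2 fold changes were 2.62, 1.49 and 8.05 (edgeR adjusted p = 3.58e-12, 4.03e-09 and 6.7e-16). COL6A1 and COL6A2 lie 93062 bases apart on the same strand of chromosome 21, and COL6A3 is on chromosome 2. Per length, COL6A1 stood at 0.882 ± 0.0683 of COL6A2 in HCT 116 p53-/- cells with vehicle and at 1.86 ± 0.114 in those labelled uL3Δ (SD, 3 libraries each). COL6A3, which joins the other 2 chains in the trimer, stood at 0.0169 of COL6A1 in the first line and at 0.334 in the second.

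The remaining collagens divided 2 against 2. COL7A1 (ENSG00000114270, chromosome 3, 48564073 to 48595329), the anchoring fibril collagen of skin and mucosa, was at 3.24, 4.27 and 5.43 CPM in the HCT 116 p53-/- libraries, against 446, 314 and 356 CPM in those labelled uL3Δ with vehicle. The difference was 85.6-fold (edgeR adjusted p = 2.98e-15). COL13A1, a transmembrane collagen, was at 3.67 ± 0.537 and 21.2 ± 1.98 CPM (SD, n = 3; edgeR adjusted p = 6.88e-11). COL12A1 (ENSG00000111799, chromosome 6, 75084326 to 75206267), a collagen that binds the surface of fibrils, had the most negative log2 fold change between the lines of all 46. It was at 132, 134 and 129 CPM with vehicle and 129, 129 and 132 CPM with Act D in the first line. In the second it was at 0.562, 0.600 and 0.540 CPM, which is 7, 12 and 8 reads, and at 1.46, 1.60 and 0.928 CPM with Act D. No library of one line came near any of the other, and the log2 fold change with vehicle was -7.83 (SE 0.14, edgeR adjusted p = 2e-17). COL17A1 (ENSG00000065618, chromosome 10, 104031286 to 104085880), the transmembrane collagen of hemidesmosomes in epithelial cells, was at 18.4, 16.1 and 15.6 CPM and 0.643, 0.801 and 0.810 CPM with vehicle. With Act D it was at 17.9, 20.1 and 17.7 CPM and 0.946, 0.685 and 1.16 CPM. Every library labelled uL3Δ lay more than 10 times below every HCT 116 p53-/- library, with log2 fold changes of -4.44 and -4.30 (edgeR adjusted p = 3.56e-13 and 1.32e-12).

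Laminin chains shifted unequally between the lines. LAMA4 (ENSG00000112769, chromosome 6, 112107931 to 112254939), the α chain of endothelial and mesenchymal laminins, was at 1.10, 0.551 and 1.09 CPM in HCT 116 p53-/- cells with vehicle and 129, 130.5 and 124 CPM in the libraries labelled uL3Δ, with 1.62, 2.16 and 1.61 CPM and 148, 151 and 152 CPM after Act D. Its log2 fold change with vehicle was 7.10 (edgeR adjusted p = 8.74e-17). LAMB1 and LAMC1, the β and γ chains of most laminins, were 11.3 and 3.23 times higher (edgeR adjusted p = 4.21e-15 and 1.31e-12). Per length, LAMB1 moved from 0.443 of LAMC1 to 1.31 of it. LAMA3 and LAMB3 encode an α and a β chain of the laminin of epithelial hemidesmosomes. LAMA3 (ENSG00000053747, chromosome 18, 23689453 to 23956222) was at 20.7, 19.1 and 20.1 CPM in the HCT 116 p53-/- libraries, against 9.72, 12.1 and 8.91 CPM in those labelled uL3Δ with vehicle, a log2 fold change of -0.95 (edgeR adjusted p = 2.87e-06). With Act D it was at 9.24, 7.08 and 8.81 CPM in those labelled uL3Δ, below every HCT 116 p53-/- library. LAMB3 (ENSG00000196878, chromosome 1, 209614870 to 209652425) was at 64.8, 66.8 and 61.2 CPM and 107, 88.5 and 82.8 CPM, 0.53 (edgeR adjusted p = 9.91e-05). LAMA3 thus stood below and LAMB3 above its level in HCT 116 p53-/- cells. LAMA5 did not pass with vehicle (0.35, edgeR adjusted p = 0.0865, but down to 0.00272 in the 3 of 16 alternatives that called it) and passed with Act D (0.56, edgeR adjusted p = 0.00984, 0.09 without replicate 1 of the Act D libraries labelled uL3Δ and 0.15 with scaling by library size alone), and LAMA1 was at 0.580 to 1.515 CPM in all libraries. Of the 37 promoters of these genes in the RefSeq table, only that of LAMA3 held the AP-1 motif TGANTCA within 300 bases (250 upstream and 50 downstream of the start), against 7.76% of 27305 promoters. It was chosen for printing after its values were seen, starts inside the annotated gene, and carries the motif (in capitals) 125 and 69 bases before the start (chr18:23872770-23873019, plus strand, RefSeq, GRCh38.p14).
LAMA3 upstream: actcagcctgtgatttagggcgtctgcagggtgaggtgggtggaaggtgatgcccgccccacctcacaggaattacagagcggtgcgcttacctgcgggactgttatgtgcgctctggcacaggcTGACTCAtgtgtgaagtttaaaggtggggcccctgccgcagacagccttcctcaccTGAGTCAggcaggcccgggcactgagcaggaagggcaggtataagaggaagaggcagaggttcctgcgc

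All 12 glycoproteins and matricellular proteins that could be tested were higher in the libraries labelled uL3Δ with vehicle. TGFBI (ENSG00000120708, chromosome 5, 136028988 to 136063818), a secreted adhesion protein induced by TGF-β, was the most strongly expressed of the 49 genes per length there, at 275 ± 27.6 TPM. It was at 3.44, 2.13 and 2.78 CPM in HCT 116 p53-/- cells with vehicle and 10.0, 9.54 and 11.3 CPM with Act D. Among libraries labelled uL3Δ it was at 1003, 995 and 965 CPM and 1067, 1000.0 and 1066 CPM. The lines were separated by a log2 fold change of 8.46 with vehicle (SE 0.13, edgeR adjusted p = 7.34e-18) and 6.67 with Act D (edgeR adjusted p = 5.33e-17). FN1, fibronectin, the fibril-forming ligand of α5β1 integrin, was at 23.5, 20.5 and 23.8 CPM and 248, 238 and 260.1 CPM with vehicle (11-fold, edgeR adjusted p = 2.51e-14). SPARC, a collagen-binding protein, was 7.62 times higher, the matricellular tenascin TNC 10.2 times, and FBLN1, a fibulin, 7.54 times (edgeR adjusted p = 5.61e-12, 1.11e-11 and 4.46e-13). FBN2, a microfibril protein, was at 0.249 to 0.541 CPM over the 6 HCT 116 p53-/- libraries and 1.62 to 3.77 CPM over the 6 labelled uL3Δ (vehicle edgeR adjusted p = 4.09e-06). FBN1, the main microfibril protein, was 1.19 higher on the log2 scale with vehicle at 0.964 to 3.37 CPM (edgeR adjusted p = 0.00366) and did not pass with Act D. FSTL1 and FSTL3, follistatin-like proteins that bind ligands of the TGF-β family, both passed, at 9.87 and 1.71 times (edgeR adjusted p = 1.45e-14 and 5.08e-06). Per length FSTL1 went from 0.375 of FSTL3 to 1.92 of it. THBS1, an activator of latent TGF-β, was 0.52 higher with vehicle (edgeR adjusted p = 0.00036) and did not pass with Act D, and THBS2 had no more than 3 reads in a library and was not tested. Per length the vehicle means of the lines lay closer than in CPM for some of these genes. They were 0.0633 ± 0.0404 and 0.137 ± 0.00577 TPM for FBN2, and 0.237 ± 0.132 and 0.32 ± 0.19 TPM for FBN1 (SD, n = 3). For THBS1 they were 9.11 ± 2.055 and 10.86 ± 2.044 TPM, and for FSTL3 7.15 ± 0.477 and 8.83 ± 2.47 TPM.

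The bases before the starts of TGFBI and FN1 are shown because these are the most abundant and a textbook member of the group. Capitals mark Sp1 motifs on either strand (GGGCGG or CCGCCC) and, in FN1, a CCAAT box. Windows of chr5:136028738-136028987 (plus strand) and chr2:215436069-215436318 (minus strand, given 5′ to 3′ on it) were read from RefSeq, GRCh38.p14. The Sp1 motif was in 29 of the 37 promoters of these genes (78.4%) and in 44.6% of all promoters, and CCAAT in 11 (29.7%) and 35.7%. In FN1 some of the Sp1 matches overlap one another.
TGFBI upstream: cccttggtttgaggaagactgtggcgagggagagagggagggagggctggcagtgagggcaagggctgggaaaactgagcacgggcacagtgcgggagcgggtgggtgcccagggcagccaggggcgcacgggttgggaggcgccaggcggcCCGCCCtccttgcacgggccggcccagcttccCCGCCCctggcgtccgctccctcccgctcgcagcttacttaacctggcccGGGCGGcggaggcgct
FN1 upstream: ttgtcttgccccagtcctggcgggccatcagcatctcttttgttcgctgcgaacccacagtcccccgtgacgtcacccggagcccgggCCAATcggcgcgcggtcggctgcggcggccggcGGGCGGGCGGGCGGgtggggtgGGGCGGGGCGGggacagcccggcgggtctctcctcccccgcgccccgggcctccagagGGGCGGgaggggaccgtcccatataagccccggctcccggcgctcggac

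CCN1 and CCN2, matricellular proteins encoded by immediate early genes and known targets of YAP and TEAD, were both higher in the libraries labelled uL3Δ. With vehicle CCN1 (ENSG00000142871, chromosome 1, 85580761 to 85584589) was at 6.16, 6.20 and 9.66 CPM in the HCT 116 p53-/- libraries, against 49.3, 52.4 and 52.8 CPM in those labelled uL3Δ. CCN2 (ENSG00000118523, chromosome 6, 131948176 to 131951372) was at 3.11, 2.82 and 4.35 CPM and 20.1, 23.6 and 26.8 CPM. No library overlapped, and the folds were 6.98 and 6.81 (edgeR adjusted p = 9.2e-11 and 5.39e-10). The promoter of CCN2 is shown because it held 3 copies of the TEAD motif GGAATG, 169, 104 and 95 bases before the start, and a TATA box at 32 bases, all in capitals (chr6:131951373-131951622, minus strand, 5′ to 3′, RefSeq, GRCh38.p14). The motif was in 6 of the 37 promoters (16.2%) and in 14% of all.
CCN2 upstream: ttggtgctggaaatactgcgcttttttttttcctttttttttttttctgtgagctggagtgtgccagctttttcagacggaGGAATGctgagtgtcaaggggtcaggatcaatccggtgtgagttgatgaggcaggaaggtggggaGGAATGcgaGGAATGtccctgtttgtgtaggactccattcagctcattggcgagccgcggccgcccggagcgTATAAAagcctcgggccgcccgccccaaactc

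Of the proteoglycans, BGN was higher and VCAN lower. BGN, biglycan, a small leucine-rich proteoglycan, was at no more than 1.97 CPM in any library, with 1 read over the 3 HCT 116 p53-/- libraries with vehicle and 61 over those labelled uL3Δ. The ratio of 61 to 1 reads, scaled by library size, was 60.1 with a 95% interval of 10.4 to 2410 that covers counting error only (edgeR adjusted p = 4.51e-06). VCAN (ENSG00000038427, chromosome 5, 83471618 to 83582303), versican, a large chondroitin sulphate proteoglycan, was at 57.4, 54.4 and 66.0 CPM with vehicle and 49.4, 50.6 and 57.0 CPM with Act D in HCT 116 p53-/- cells. It was at 19.7, 16.5 and 20.3 CPM and 25.2, 25.1 and 23.0 CPM in the libraries labelled uL3Δ. The highest of these was below the lowest of the other line, with log2 fold changes of -1.66 and -1.09 (edgeR adjusted p = 1.76e-10 and 6.39e-08).

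Of the 6 crosslinking and processing enzymes, 5 were higher with vehicle. LOX (ENSG00000113083, chromosome 5, 122063195 to 122078413), lysyl oxidase, had 0, 2 and 0 reads in the HCT 116 p53-/- libraries with vehicle and 201, 294 and 243 in those labelled uL3Δ. In CPM the latter were 16.1, 14.7 and 16.4, and 14.0, 23.1 and 17.9 with Act D, against 0.0623, 0.203 and 0.0804 in HCT 116 p53-/- cells with Act D. The ratio with vehicle, 738 to 2 reads, was 363 after scaling (95% interval 100.2 to 3005, counting error only; edgeR adjusted p = 4.83e-12). The relatives of LOX were closer: LOXL1 was 1.91 times higher (edgeR adjusted p = 0.000305) and LOXL2 did not pass (1.26 times, edgeR adjusted p = 0.0634). Both lysyl hydroxylases passed, PLOD1 at 1.40 and PLOD2 at 5.61 times (edgeR adjusted p = 3.99e-05 and 2.35e-13). Per length PLOD1 did not differ in mean, at 54.2 ± 4.20 and 54.2 ± 8.27 TPM (SD, n = 3), and it stood at 6.90 times PLOD2 in HCT 116 p53-/- cells and 1.69 times in the other line. BMP1, the procollagen C-proteinase, was 1.32 times higher with vehicle (edgeR adjusted p = 0.00244, 0.246 with scaling by library size alone) and did not pass with Act D. Its mean per length had the other direction with vehicle, 4.70 ± 0.560 TPM in HCT 116 p53-/- cells and 4.33 ± 0.448 TPM in those labelled uL3Δ.

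Both proteases and inhibitors were higher, 5 of 6 in all. MMP1, interstitial collagenase, was at 0.518, 0.482 and 0.604 CPM and 17.3, 19.3 and 20.1 CPM with vehicle, 34.7-fold, and the gelatinase MMP2 ranged over 0.473 to 2.33 CPM in the HCT 116 p53-/- libraries and 2.90 to 4.45 CPM in those labelled uL3Δ (edgeR adjusted p = 3.04e-12 and 0.000222). MMP14, the membrane protease that activates MMP2, was at 10.3 to 14.6 CPM in all 12 libraries and did not pass (vehicle difference -0.04, 95% interval -0.29 to 0.21). Per length its mean with vehicle was lower in the libraries labelled uL3Δ, 1.93 ± 0.206 against 2.91 ± 0.176 TPM (SD, n = 3). TIMP1, the most abundant of the 49 per length in HCT 116 p53-/- cells at 90.9 ± 3.30 TPM (SD, n = 3), was 1.82 times higher in the libraries labelled uL3Δ, and TIMP2 1.31 times (edgeR adjusted p = 7.88e-08 and 0.00196). The TIMP2 call was lost with scaling by library size alone (edgeR adjusted p = 0.259), and its mean per length was the lower one in the libraries labelled uL3Δ, 10.1 ± 2.08 against 10.7 ± 1.82 TPM. TIMP3 (ENSG00000100234, chromosome 22, 32801705 to 32863041), the inhibitor that binds to the matrix itself, was at 8.36, 5.37 and 4.35 CPM and 93.5, 94.0 and 95.7 CPM with vehicle. With Act D it was at 82.7, 97.0 and 84.3 CPM in the libraries labelled uL3Δ. All 6 of these lay far above all 6 HCT 116 p53-/- libraries, and the fold with vehicle was 15.7 (edgeR adjusted p = 2.04e-13). The sequence before the start of TIMP3, the one TIMP among the 49 called for a response to Act D below, holds 5 Sp1 motifs and a CCAAT box on the minus strand (ATTGG), in capitals (chr22:32801455-32801704, plus strand, RefSeq, GRCh38.p14).
TIMP3 upstream: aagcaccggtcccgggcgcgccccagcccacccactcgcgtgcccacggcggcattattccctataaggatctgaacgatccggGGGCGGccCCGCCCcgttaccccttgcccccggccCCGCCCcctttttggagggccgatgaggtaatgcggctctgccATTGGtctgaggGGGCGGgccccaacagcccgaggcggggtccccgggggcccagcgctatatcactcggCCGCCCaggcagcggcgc

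With Act D in both lines the pattern was much the same in number. Libraries labelled uL3Δ had a higher level of 31 and a lower level of 5 of the 46 genes, together 36, where 70.4% of all genes tested differed, 35.1% upward and 35.3% downward. The difference was 1 or more on the log2 scale for 25 and 5 of them, against 18.8% and 18.3% of all genes, and the groups did not overlap for 37, 32 higher and 5 lower, against 74.1% of all genes, 36.5% and 37.6%. Over both treatments, 30 were higher in each, 5 were lower in each (COL1A1, COL12A1, COL17A1, LAMA3 and VCAN), and 6 passed in neither. LAMB3, THBS1, FBN1 and BMP1 were called with vehicle only and LAMA5 with Act D only. For LAMB3 the difference between treatments was itself tested and passed (below), whereas for THBS1, FBN1, BMP1 and LAMA5 it did not (interaction edgeR adjusted p = 0.12, 0.49, 0.338 and 0.68). The call of FSTL3 with Act D (0.31, edgeR adjusted p = 0.0169) was lost with scaling by library size alone (0.637), without the filter on low counts (0.066) and without Act D replicate 2 or 3 of either line (0.0576 to 0.113), and per length its mean was lower there, 8.67 ± 0.281 against 9.98 ± 0.540 TPM.

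**Figure D2:**
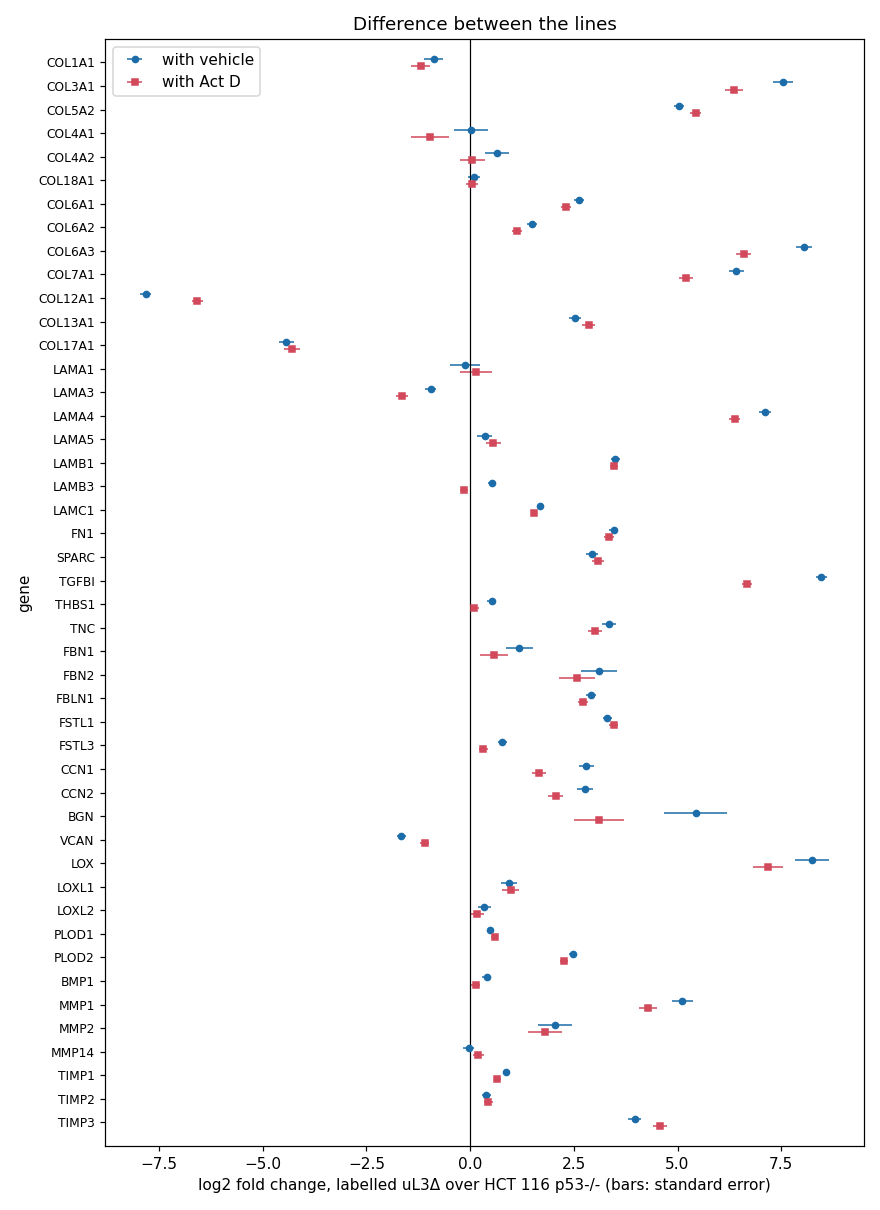
Difference between the lines for the 46 genes tested, as log2 fold change of the libraries labelled uL3Δ over HCT 116 p53-/- libraries, with vehicle (circles) and with Act D (squares). Bars are standard errors from the edgeR fit. Most points lie to the right of 0, and COL12A1 and COL17A1 lie farthest to the left.

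Act D raised 10 of the 46 matrix genes and lowered 1 in HCT 116 p53-/- cells. Over all genes tested 18.7% responded, 7.59% rising and 11.1% falling. The median log2 change of the 46 was 0.26, that of all genes 0.02. TGFBI, CCN2, COL6A3 and CCN1 rose by at least 1 on the log2 scale, where 1.23% of all genes did, and no matrix gene fell that far, as 1.66% of all genes did. Vehicle and Act D libraries did not overlap for 17 of the 46, a share near that of all genes (38.2%), with 16 higher and 1 lower where all genes had 18.2% and 20%. COL7A1, LAMA3, LAMA4, LAMB3, THBS1 and FSTL3 rose by less, and TIMP3 fell. Among the libraries labelled uL3Δ 4 genes rose, against 3.51% of all genes, and none fell, against 8.4% (11.9% in both directions). Only COL12A1 passed 1 on the log2 scale, where 0.554% of all genes rose and 0.733% fell that far, and 14 of the 46 did not overlap between treatments, 10 being higher and 4 lower, against 27.6% of all genes, 12.8% and 14.8%. Without the adjustment 6 were higher and 3 lower at a p under 0.05 in edgeR, and DESeq2 called 5 higher and none lower. With scaling by library size alone 7 matrix genes rose and 1 fell in HCT 116 p53-/- cells, where 551 of all genes rose and 2309 fell. For those labelled uL3Δ it gave 2 higher (COL12A1 and CCN2) and 2 lower (LAMB3 and PLOD2), where 227 of all genes rose and 1858 fell. Without replicate 1 of the Act D libraries labelled uL3Δ none passed, with 5 higher and 5 lower at an unadjusted p under 0.05.

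CCN2 was the 1 gene called in both lines. With Act D it was at 6.67, 8.93 and 10.7 CPM in HCT 116 p53-/- cells, from 3.11, 2.82 and 4.35 CPM with vehicle. In the libraries labelled uL3Δ it was at 41.6, 36.2 and 30.8 CPM, from 20.1, 23.6 and 26.8 CPM. Act D libraries lay above vehicle libraries in each line, by 1.33 (SE 0.21, edgeR adjusted p = 0.000209) and 0.63 (SE 0.16, edgeR adjusted p = 0.0153) on the log2 scale. The second call was lost without replicate 1 of the vehicle libraries (edgeR adjusted p = 0.0589) or replicate 1 of the Act D libraries (0.0958) labelled uL3Δ, and the difference between the 2 responses did not pass (-0.70, edgeR adjusted p = 0.123). CCN1 rose in HCT 116 p53-/- cells to 12.6, 15.8 and 19.5 CPM, 2.15-fold (edgeR adjusted p = 0.000318). Its levels labelled uL3Δ were 51.6, 56.3 and 42.3 CPM with Act D, which overlap those with vehicle (-0.04, edgeR adjusted p = 0.905). Here the responses differed by -1.15 (SE 0.24, edgeR adjusted p = 0.00716).

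**Figure D3:**
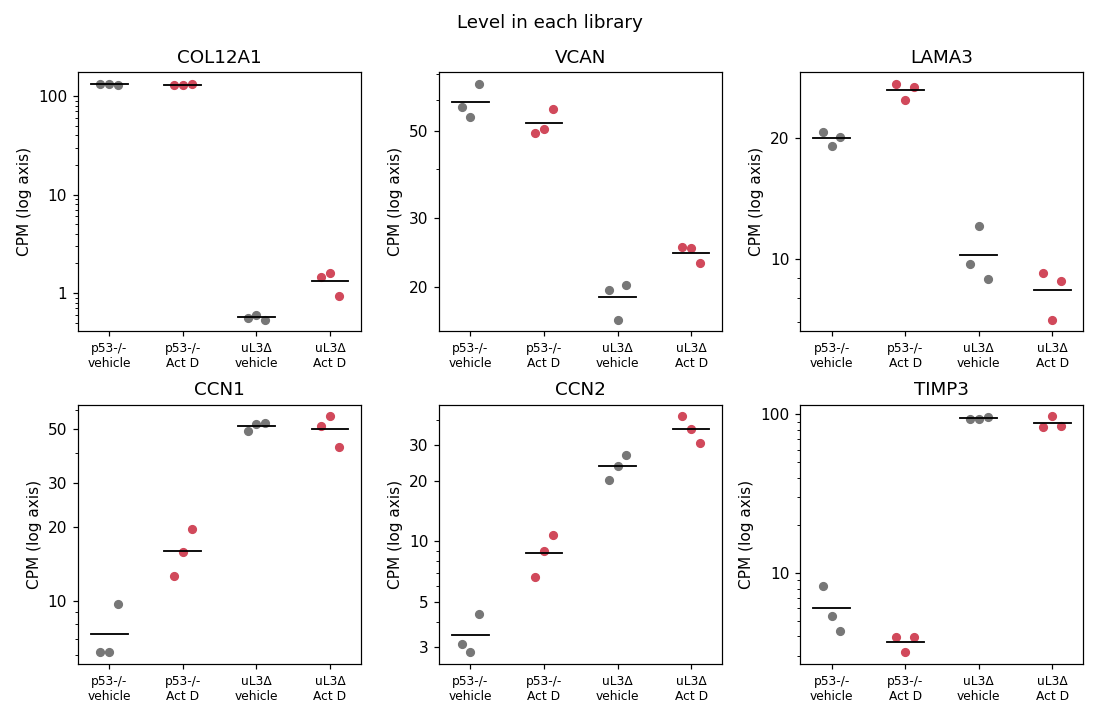
CPM (log axis, a scale of its own for each gene) of 6 matrix genes in the 12 libraries, by line and treatment, with points for libraries and a line at the mean of 3. CCN2 is higher with Act D in both lines and CCN1 in HCT 116 p53-/- cells, COL12A1 and VCAN are higher with Act D in those labelled uL3Δ, and 1 vehicle library of TIMP3 lies above the other 2.

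Among the genes called, the largest rise with Act D in HCT 116 p53-/- cells was that of TGFBI, from 3.44, 2.13 and 2.78 CPM to 10.0, 9.54 and 11.3 CPM, 3.66-fold (edgeR adjusted p = 1.12e-07). COL6A3 went from 1.30, 1.51 and 0.362 to 2.80, 2.30 and 2.33 CPM (2.40-fold, edgeR adjusted p = 0.00622), LAMA4 from 1.10, 0.551 and 1.09 to 1.62, 2.16 and 1.61 CPM (1.94-fold, edgeR adjusted p = 0.00794) and COL7A1 from 3.24, 4.27 and 5.43 to 8.22, 8.38 and 8.12 CPM (1.90-fold, edgeR adjusted p = 0.00342). Per length the mean of COL6A3 did not rise, at 0.217 ± 0.129 TPM with vehicle and 0.207 ± 0.0306 TPM with Act D. For each of these genes all 3 Act D libraries lay, in CPM, above all 3 vehicle libraries. The LAMA4 call was lost without vehicle replicate 2 (edgeR adjusted p = 0.0727) or Act D replicate 2 (0.0641). These are genes with a very high level in the libraries labelled uL3Δ, and their level in HCT 116 p53-/- libraries was a small share of it. For TGFBI the share was 0.216% to 0.348% with vehicle and 0.913% to 1.08% with Act D, and for COL6A3 it was 0.131% to 0.547% and 0.95% to 1.16%. A set of 16 genes outside the list that were at 50 CPM or more in the vehicle libraries labelled uL3Δ and at 0.5 CPM or less in HCT 116 p53-/- cells with vehicle was measured beside them. Their median share was 0.1249% to 0.174% in the vehicle libraries and 0.649% to 0.837% in the Act D libraries. The choice of these genes holds their share with vehicle to about 1% at most and does not limit it with Act D, so neither that gap nor the subtraction below is independent of the choice.

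When that median share of the mean library labelled uL3Δ was subtracted from each HCT 116 p53-/- library, the responses of COL6A3 and LAMA4 were 0.06 and -0.06 on the log2 scale (edgeR adjusted p = 0.962 and 0.935), so that neither call was left and LAMA4 changed sign. The response of TGFBI became 1.00 (edgeR adjusted p = 0.0536). COL7A1, at 2.68% to 2.76% of its level labelled uL3Δ with Act D, kept a call at 0.69 (edgeR adjusted p = 0.0386), as did CCN1 at 1.10 and CCN2 at 1.32 (edgeR adjusted p = 0.000418 and 0.000277). With the subtraction 7 matrix genes rose and 1 fell. The line differences of TGFBI, COL6A3 and LAMA4 stayed past the threshold in all 16 alternatives run for each, in both treatments.

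**Figure D4:**
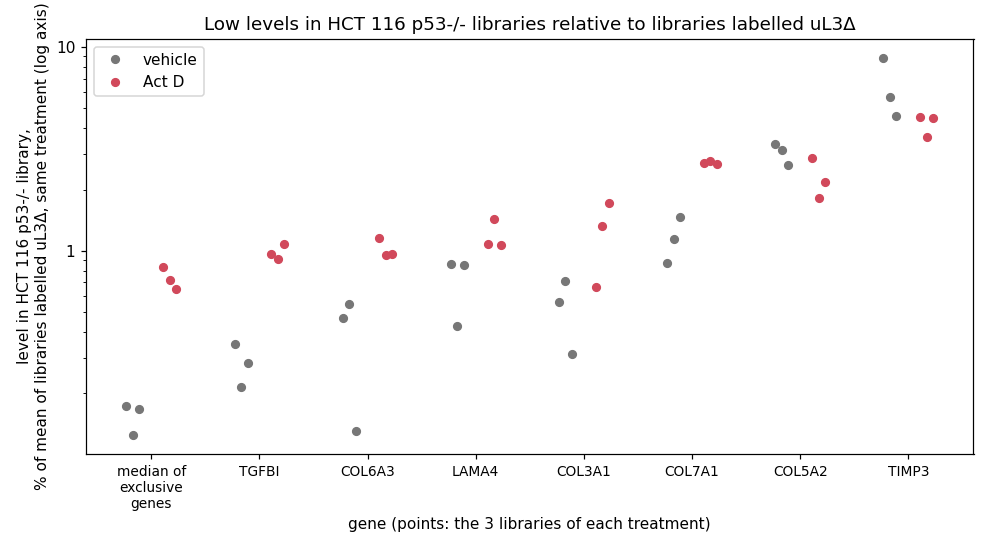
Level in each HCT 116 p53-/- library as a percentage of the mean of the libraries labelled uL3Δ under the same treatment (log axis), for 7 matrix genes and, at the left, the median of 16 genes nearly exclusive to the libraries labelled uL3Δ. Points are the 3 libraries with vehicle (grey) and with Act D (red). TGFBI, COL6A3, LAMA4 and COL7A1 are higher in all 3 Act D libraries, those of COL3A1 overlap between treatments, and TIMP3 is lower.

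TIMP3 alone fell with Act D in HCT 116 p53-/- cells. It was at 8.36, 5.37 and 4.35 CPM with vehicle and 3.99, 3.18 and 3.94 CPM with Act D, a log2 change of -0.70 (SE 0.20, edgeR adjusted p = 0.0205). The groups did not overlap, though vehicle replicate 1 stood above the other vehicle libraries, and without it the change was -0.39 (edgeR adjusted p = 0.136). It also missed the threshold without Act D replicate 2 (-0.60, edgeR adjusted p = 0.0949). LAMA3 and LAMB3, chains of the hemidesmosome laminin, rose by 0.40 and 0.41 (edgeR adjusted p = 0.0284 and 0.00659), to 27.4, 24.9 and 26.8 CPM and 90.1, 83.8 and 81.8 CPM. The call for LAMA3 was lost when any 1 library other than Act D replicate 2 was left out (edgeR adjusted p = 0.0533 to 0.108), and scaling by library size alone ended the calls of LAMA3, LAMB3 and THBS1 (edgeR adjusted p = 0.149, 0.082 and 0.107). FSTL3 rose by 0.56 (edgeR adjusted p = 0.00152) and THBS1 by 0.37 (edgeR adjusted p = 0.0252), the latter not without vehicle replicate 2 or 3 or Act D replicate 3 (edgeR adjusted p = 0.108, 0.0792 and 0.143).

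In the libraries labelled uL3Δ the rises other than CCN2 were those of COL12A1, VCAN and COL5A2. COL12A1 went from 0.562, 0.600 and 0.540 CPM to 1.46, 1.60 and 0.928 CPM, from 7, 12 and 8 reads to 20, 14 and 8. This was a log2 change of 1.23 (SE 0.26, edgeR adjusted p = 0.0075) at under 2 CPM, lost without Act D replicate 1 or 2 (edgeR adjusted p = 0.0707 and 0.0514). COL12A1 was also not called in a fit of only the groups compared (edgeR adjusted p = 0.0875). Its level labelled uL3Δ was 0.410% to 0.456% of that in HCT 116 p53-/- cells with vehicle and 0.715% to 1.23% with Act D, while 14 genes nearly exclusive to HCT 116 p53-/- cells had median shares of 0.332% to 0.560% and 0.193% to 1.06%. Subtracting those shares as well gave a larger change, 2.56 (edgeR adjusted p = 0.0216), over the few reads left. VCAN went from 19.7, 16.5 and 20.3 to 25.2, 25.1 and 23.0 CPM (0.39, edgeR adjusted p = 0.0336) and COL5A2 from 114, 109 and 108 to 141, 139.8 and 131 CPM (0.32, edgeR adjusted p = 0.0316), without overlap. Per length the mean of VCAN had the opposite directions, from 2.65 ± 1.04 to 2.28 ± 0.611 TPM in the libraries labelled uL3Δ and from 5.97 ± 0.342 to 6.51 ± 0.339 TPM in HCT 116 p53-/- cells. Both calls were lost without vehicle replicate 2 or any 1 of the Act D libraries, and that of COL5A2 also without vehicle replicate 3 (edgeR adjusted p = 0.0626 to 0.142). Both were also lost with scaling by library size alone, without the filter on low counts and in a fit of only the groups compared.

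**Figure D5:**
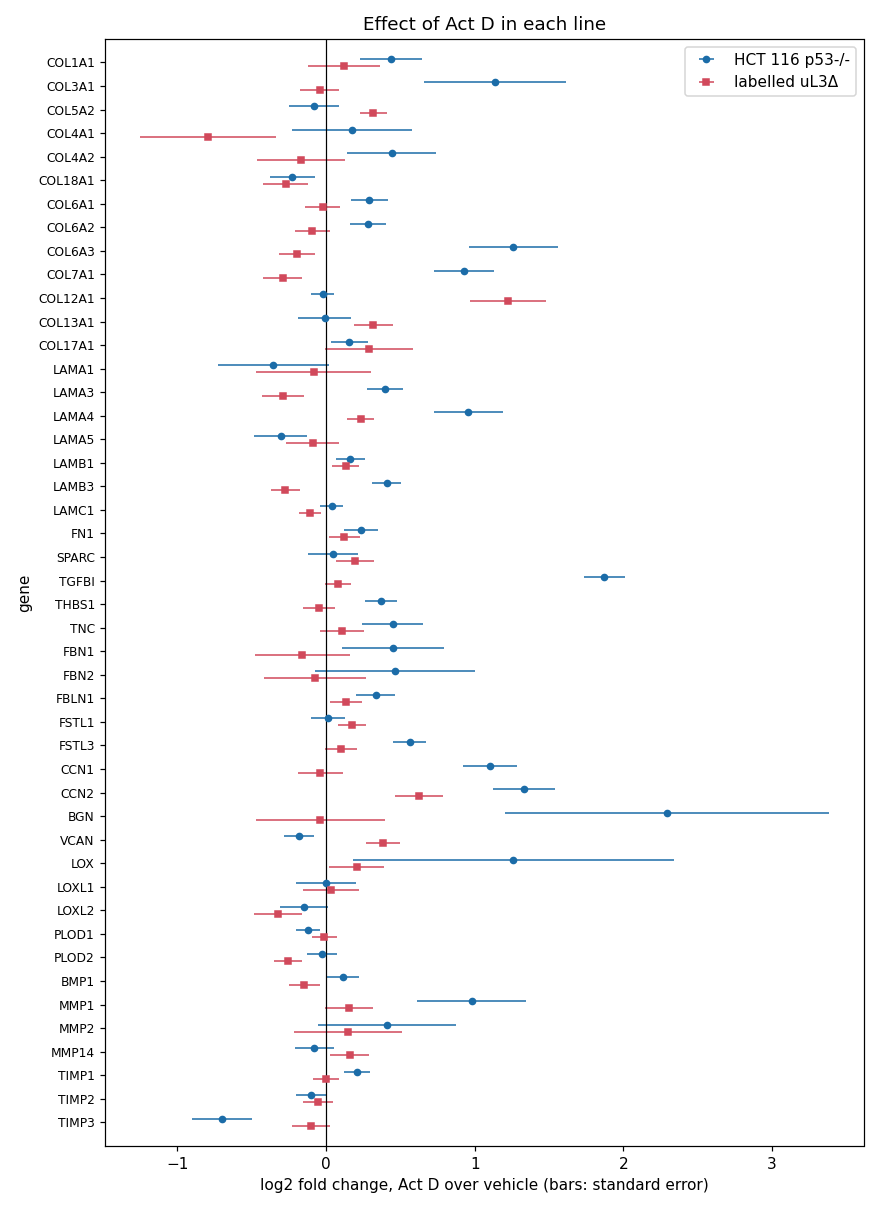
Log2 fold change of Act D over vehicle for the 46 genes tested in HCT 116 p53-/- cells (circles) and in the libraries labelled uL3Δ (squares), with standard errors as bars. The circles of TGFBI, CCN2, COL6A3 and CCN1 lie to the right of 1, as does the square of COL12A1, and BGN and LOX, with the widest bars, had under 10 reads in HCT 116 p53-/- cells.

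The response to Act D differed between the lines for 8 of the 46 genes, where 6.53% of all genes tested did. For COL6A3, COL7A1, LAMA3, LAMB3, TGFBI and CCN1 the response labelled uL3Δ was the lower one (3.23% of all genes), and for COL12A1 and VCAN it was the higher one (3.3%). LAMB3 rose in HCT 116 p53-/- cells and was at 81.8, 69.7 and 77.7 CPM with Act D in libraries labelled uL3Δ, below all of their vehicle libraries (-0.28, edgeR adjusted p = 0.0789). The responses differed by -0.68 (SE 0.14, edgeR adjusted p = 0.00648), and the call held in all 21 alternatives. LAMB3 fell there in 3 of these, such as scaling by library size alone (-0.38, edgeR adjusted p = 0.0407). COL7A1 differed by -1.22 (edgeR adjusted p = 0.00547), with 355, 292 and 262 CPM labelled uL3Δ with Act D, and this call also held in all 21. The differences for TGFBI and COL6A3 were -1.79 and -1.45 (edgeR adjusted p = 1.48e-05 and 0.0113) and became -0.92 and -0.26 with the subtraction described above (edgeR adjusted p = 0.164 and 0.855). The calls for LAMA3, VCAN and COL12A1, at -0.69, 0.57 and 1.25 (edgeR adjusted p = 0.0345, 0.0322 and 0.0123), rested on single libraries. That of COL12A1 was lost without replicate 1 or 2 of the Act D libraries labelled uL3Δ (edgeR adjusted p = 0.0925 and 0.0649). That of LAMA3 was lost without replicate 2 of either treatment labelled uL3Δ, or, in HCT 116 p53-/- cells, without vehicle replicate 2 or 3 or any Act D replicate (0.0510 to 0.0982). That of VCAN was lost without vehicle replicate 2 or any Act D replicate labelled uL3Δ, or, in HCT 116 p53-/- cells, without vehicle replicate 3 or Act D replicate 1 or 2 (0.0517 to 0.0943).

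Of 149 other matrix genes, listed by role, 96 could be tested. With vehicle 49 were higher and 27 were lower in uL3Δ-labelled libraries, against 35.1% and 36.2% of all genes, with a median log2 fold change of 0.51. Collagen synthesis and secretion, which covers prolyl hydroxylases, chaperones and procollagen proteinases, had 15 higher and 7 lower of 27. Other collagens had 8 higher and 5 lower of 15, other laminins and basement membrane proteins 2 and 3 of 8, and other glycoproteins 7 and 7 of 18. Proteoglycans had 5 higher and none lower of 6, and other proteases and inhibitors 12 and 5 of 22. With Act D in both lines 47 of the 96 were higher and 28 lower, against 35.1% and 35.3%. Act D raised 20 and lowered 7 of the 96 in HCT 116 p53-/- cells, against 7.59% and 11.1% of all genes. It raised 2 and lowered 3 in the libraries labelled uL3Δ, against 3.51% and 8.4%.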

How the data were processed

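Libraries from both lines were made with the TruSeq RNA kit and sequenced as paired ends, with 3 biological replicates per group per the labels. The authors ran RSEM 1.2.25 on hg38 per the submitters' processing notes, and deposited expected counts and TPM values for each gene. They also gave posterior standard deviations of the counts and effective lengths. The deposited file of vehicle replicate 2 of HCT 116 p53-/- cells held 226788 transcripts, whose expected counts and TPM were summed per gene. The aligner and the strand setting of the counting are not given in the sources used here.

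Expected counts were rounded. Of 33990 genes with a count, 15692 passed filterByExpr and were fitted in edgeR 4.0.16 (R 4.3.3) by glmQLFit and glmQLFTest, with 1 coefficient per group over all 12 libraries, TMM factors of 0.847 to 1.15 and a common dispersion of 0.0117. The p-values were adjusted by Benjamini-Hochberg over all genes tested. Depth was 10087925 to 21138886 counts per library, and intervals of read ratios cover counting error only. Symbols were matched for 60261 of 60617 identifiers, and positions are from GENCODE v44. The tests were also run on simulated data with 200 changed genes and the common dispersion for every gene. Far more genes differed between the lines here, so that run does not measure how the tests perform on these data.

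The alternatives were DESeq2 1.42.0, other scalings and filters, a replicate block, only the groups compared, leaving out each library, and a subtraction of the share that line-exclusive genes showed in the other line. Its form in both directions was chosen after seeing the data. The members and gene lists were chosen with earlier results of these data known. All 12 values were given for called genes that reached 5 CPM in 1 group and had the 5 largest log2 fold changes in each direction with vehicle, or the 3 largest in the other comparisons. Families were set side by side, and genes under 5 CPM in every group were given by ranges. CCN1, LAMB3 and COL5A2 were added, and the LAMA3 promoter was chosen after its values were seen. Promoters came from RefSeq for 37 of the 49 genes, from 250 bases before to 50 after the start. COL1A1, COL1A2, COL3A1, COL5A2, COL6A1, LAMA1, CCN1, LOXL2, BMP1, MMP1, MMP2 and TIMP2 had no entry used. Protein sequences were not analysed here. Replicate numbers come from the titles, whereas the descriptions number the Act D libraries of the second line 4 to 6. Tables and figures used Python 3.11.15 and pandas 2.3.3. Some results are not reported here.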

Additional observations from a re-analysis of the deposited data

Results flagged for a closer look

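For 8 of the matrix genes the response to Act D differed between the lines by a test of the difference itself, edgeR's interaction term adjusted by Benjamini-Hochberg, where 6.53% of all genes did. Values are the log2 response of the libraries labelled uL3Δ minus that of HCT 116 p53-/- cells. TGFBI stood at -1.792 and COL6A3 at -1.453, and neither passed once the share seen in line-exclusive genes was subtracted. COL7A1 stood at -1.219, CCN1 at -1.145 and LAMB3 at -0.683, and these passed in all 21 alternatives. LAMA3 stood at -0.688, VCAN at 0.566 and COL12A1 at 1.247, and each of these calls was lost when single libraries were left out.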

How the results depend on the processing

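Of the 46 matrix genes, 39 to 41 differed between the lines with vehicle and 35 to 37 with Act D when 1 library was left out, against 39 and 36 in the full fit. Act D changed 8 to 11 genes in HCT 116 p53-/- cells and 0.0 to 4.0 in the libraries labelled uL3Δ under the same omissions, against 11 and 4. In the latter, 2 were left without vehicle replicate 2 or Act D replicate 2 or 3, and 0 without Act D replicate 1. The response differed between lines for 5.0 to 8.0 genes, the lowest without Act D replicate 2 of those labelled uL3Δ. A further threshold of 1 on the log2 scale left 4.0 genes for Act D in HCT 116 p53-/- cells, 1.0 in the libraries labelled uL3Δ and 5.0 for the difference in response, and a fit of only the groups compared left 1.0 for Act D in those labelled uL3Δ. Subtracting the share seen in line-exclusive genes turned the response of LAMA4 in HCT 116 p53-/- cells from 0.958 to -0.061, in 1 direction and in both. Correlations between same-numbered libraries were -0.104 to 0.101 and those between differently numbered ones -0.0985 to 0.0989, so no pairing by replicate number was seen. With the replicate block 39, 36, 10, 4 and 7 genes passed in the 5 comparisons, against 39, 36, 11, 4 and 8 without it, and LAMA3 was no longer called for Act D in HCT 116 p53-/- cells (edgeR adjusted p = 0.0503) or for the difference in response (0.0619). The depth limits BGN, THBS2 and, in HCT 116 p53-/- cells, LOX, which had few reads. Why these counts moved was not tested.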
